A study of Homo sapiens with 6 samples.

Results

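The AP-1 family described here comprises 10 genes, FOS, FOSB, FOSL1, FOSL2, JUN, JUNB, JUND, ATF2, BATF3 and JDP2. They were chosen by name as rows of the deposited table whose only annotated gene is a listed member. All 10 were found, with 1 row each, among 12448 genes that have a row of their own. A further row that names FOSL1 together with another gene was left out.

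AP-1 is a dimeric transcription factor. JUN proteins pair with each other or with FOS proteins through leucine zippers, and FOS proteins need a JUN partner to bind DNA. Dimers of JUN and FOS bind the TPA response element, whereas dimers of JUN and ATF2 favour the cAMP response element. APE1, the product of APEX1, is best known as the endonuclease for abasic sites in DNA, and is also called Ref-1 because it reduces a conserved cysteine in the DNA-binding region of FOS and JUN. That action is on the proteins, whereas the values here are mRNA levels, so DNA binding by AP-1 was not measured.

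Total RNA of HEK293 derivatives, a human embryonic kidney cell line, was hybridised to Affymetrix whole-transcript arrays. All lines carry a pcDNA-FRT construct in a tet-on system, in which doxycycline switches on the transgene, and grew with 10% serum and puromycin at 1 µg per ml. One line holds the empty vector (vector line), one wild-type APE1 (wtAPE1 line) and one a fusion of ubiquitin to APE1 (ubAPE1 line). Doxycycline was given at 2 µg per ml for 16 h or left out. Each of the 6 groups is 1 column of log2 levels that the authors averaged from 3 biological replicates, so the replicate spread does not enter the tests. Each construct is represented by a single derivative, so that construct and line cannot be told apart.

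The promoters of the members are shown first, since several AP-1 genes are themselves known to be driven by AP-1 and cAMP response elements. RefSeq (GRCh38.p14) windows of 250 bases before the annotated start were matched for 7 of the 10 members, while FOSL1, ATF2 and BATF3 are named only. JUN and ATF3 both passed the test as lower in the ubAPE1 line, and JUND and FOS did not pass. DUSP1, GLRX and RPS6KA2, other listed genes of the pathway, also passed as lower there, and their windows are not printed. Among these genes only JUN and ATF3 held TGACATCA, a sequence explained below, so the printed windows do not stand for all that passed. ATF3 belongs to the partners of AP-1 rather than to the 10 genes, and the first of its 2 annotated starts is shown, since the second window held no match. Capitals mark every match, on either strand, to TGACTCA (the TPA response element), TGACGTCA (the cAMP response element), TGACATCA (the form known from the JUN promoter, where JUN and ATF2 act) and TGACG (the half-site of the cAMP response element, held by TGACGTCA on both strands but not by the other sequences). The windows are chr1:58784048-58784297 (minus strand) for JUN, chr1:212565157-212565406 (plus strand) for ATF3, chr19:18281623-18281872 (minus strand) for JUND and chr14:75278578-75278827 (plus strand) for FOS.
JUN: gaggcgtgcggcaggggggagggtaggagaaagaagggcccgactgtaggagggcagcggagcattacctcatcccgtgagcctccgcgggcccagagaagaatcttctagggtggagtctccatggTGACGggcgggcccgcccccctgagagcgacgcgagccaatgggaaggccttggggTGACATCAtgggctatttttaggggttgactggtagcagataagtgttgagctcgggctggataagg
ATF3: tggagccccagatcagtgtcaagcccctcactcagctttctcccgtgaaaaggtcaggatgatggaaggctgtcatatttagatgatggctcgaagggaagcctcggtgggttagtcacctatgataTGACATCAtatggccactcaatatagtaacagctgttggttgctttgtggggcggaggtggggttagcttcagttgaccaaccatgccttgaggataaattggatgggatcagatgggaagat
JUND: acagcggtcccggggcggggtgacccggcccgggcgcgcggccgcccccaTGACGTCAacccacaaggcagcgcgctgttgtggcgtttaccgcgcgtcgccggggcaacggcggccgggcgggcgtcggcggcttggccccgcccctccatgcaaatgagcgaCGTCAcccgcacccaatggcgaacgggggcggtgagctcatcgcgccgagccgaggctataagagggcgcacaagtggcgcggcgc
FOS: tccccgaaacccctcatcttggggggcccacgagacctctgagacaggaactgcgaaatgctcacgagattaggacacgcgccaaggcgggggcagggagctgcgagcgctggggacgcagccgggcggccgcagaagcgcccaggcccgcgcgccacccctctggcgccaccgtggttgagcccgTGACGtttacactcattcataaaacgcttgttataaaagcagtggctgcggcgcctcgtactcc
Counted from the start, with -1 as the last base before it, TGACATCA lay at -67 to -60 in JUN and at -123 to -116 in the ATF3 window. Of 34788 distinct windows, 2.36% held this sequence. It was searched for because it is known from the JUN promoter, so the match in JUN was set in advance. The share does not bear on that match. For ATF3 the share is per window, and 1 of its 2 windows held the sequence. Of the other listed genes that passed as lower in the ubAPE1 line, DUSP1 held the full cAMP response element (-125 to -118) and not TGACATCA, and the windows of GLRX (1) and RPS6KA2 (3) held no match. The full cAMP response element was found in JUND at -200 to -193 and in 1.64% of all windows. TGACTCA matched in none of the member windows and in 4.21% of all.

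The half-site TGACG was shared by the member genes that had a window, which leaves out FOSL1, ATF2 and BATF3. All 7 member genes with a window held it, in 7 of 9 windows, since JDP2 has 3 annotated starts and 1 of them carried it. It lay at -64 to -60 in FOS, -60 to -56 in FOSB, -66 to -62 in FOSL2 (with a second at -201 to -197 on the other strand), -137 to -133 in JUNB and -123 to -119 in JUN. It was not particular to the family, since DUSP1 and APEX1 (-108 to -104) also held it, whereas ATF3, GLRX and RPS6KA2 did not. In all windows the share with the half-site was 21.2%. Member windows were rich in G and C (62.0% to 87.2%, against a median of 58.0% over all windows), and among windows with at least 60% the share was 27.4%. A match describes the letters and not the binding of a factor.

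All columns were first put on a common footing. From each column the median over rows of its deviation from the row mean was subtracted (between -0.11 and 0.096 log2), so that differences are relative to the median row. The 11619 rows with a mean at or above the 25th percentile of row means (5.03 log2) were tested, and all 10 members were among them. FOS was the member nearest to that limit, with a mean of 5.33 log2. Levels are printed as deposited, and levels of different genes are not set against each other because each row has its own probes.

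APEX1 checked the labels. Its response to doxycycline was 0.18 log2 (vector), 1.09 (wtAPE1) and 0.88 (ubAPE1). The lines also differed in kidney and epithelial markers, the type named in the labels. The mean level of 8 such markers was 7.01 and 7.04 log2 in the vector line and between 6.26 and 6.33 in the 4 columns of the APE1 lines, and of the 7 markers tested EPCAM, KRT19 and LRP2 were lower in both. LRP2 reached the row limit through its vector columns, with a mean of 4.96 log2 over the APE1-line columns. The lineage markers PAX2 (0.30 and 0.18 log2, wtAPE1 then ubAPE1) and PAX8 (0.44 and 0.25) had differences in the other direction that did not pass. KRT8 (0.069 and -0.023) and KRT18 (-0.44 and -0.41) did not pass either. Without EPCAM the mean was 6.87 and 6.86 log2 in the vector line and between 6.43 and 6.50 in the others. CDH1, the cadherin of epithelia, lay below the row limit in the average of all columns. Of 4 neuronal markers measured, 2 were tested, and NEFL was lower in both APE1 lines. INA (-0.26 and -0.13 log2) did not pass. NEFH and STMN2 lay below the row limit, with single-column differences from the vector line above 0. The neuronal list means were between 6.18 and 6.54 log2. Of 4 fibroblast and smooth muscle markers, 3 were tested, and COL3A1 was higher in both. COL1A1 (0.10 and -0.0015) and COL1A2 (0.31 and 0.18) did not pass, and THY1 lay below the row limit. The means of that list were between 5.15 and 5.41. The 4 blood markers measured had means between 4.60 and 4.87 log2, and 3 of them lay below the row limit. These markers moved with the same line contrasts as the results below, and their part in them was not tested.

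JUN was the only member that passed the test in a line contrast. Its product is the central AP-1 subunit, able to pair with itself and with every other subunit of the family. JUN lay at 9.39 log2 in the untreated and 9.40 in the treated vector column. The wtAPE1 columns were at 8.76 and 8.79, those of ubAPE1 at 8.84 and 8.60, again untreated first, the order kept for every pair below. Both vector columns were above all 4 columns of the APE1 lines, also once aligned. On the aligned scale 17.7% of all rows had this order. The doxycycline states lay within 0.03 log2 of each other in the vector and wtAPE1 lines, but not in the ubAPE1 line. In order of deposited level, the 2 vector columns came first, and the next 3 columns (ubAPE1 without doxycycline and both wtAPE1 columns) spanned less than the median residual SD of the fit (0.14 log2), so their order carries no weight.

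**Figure D1:**
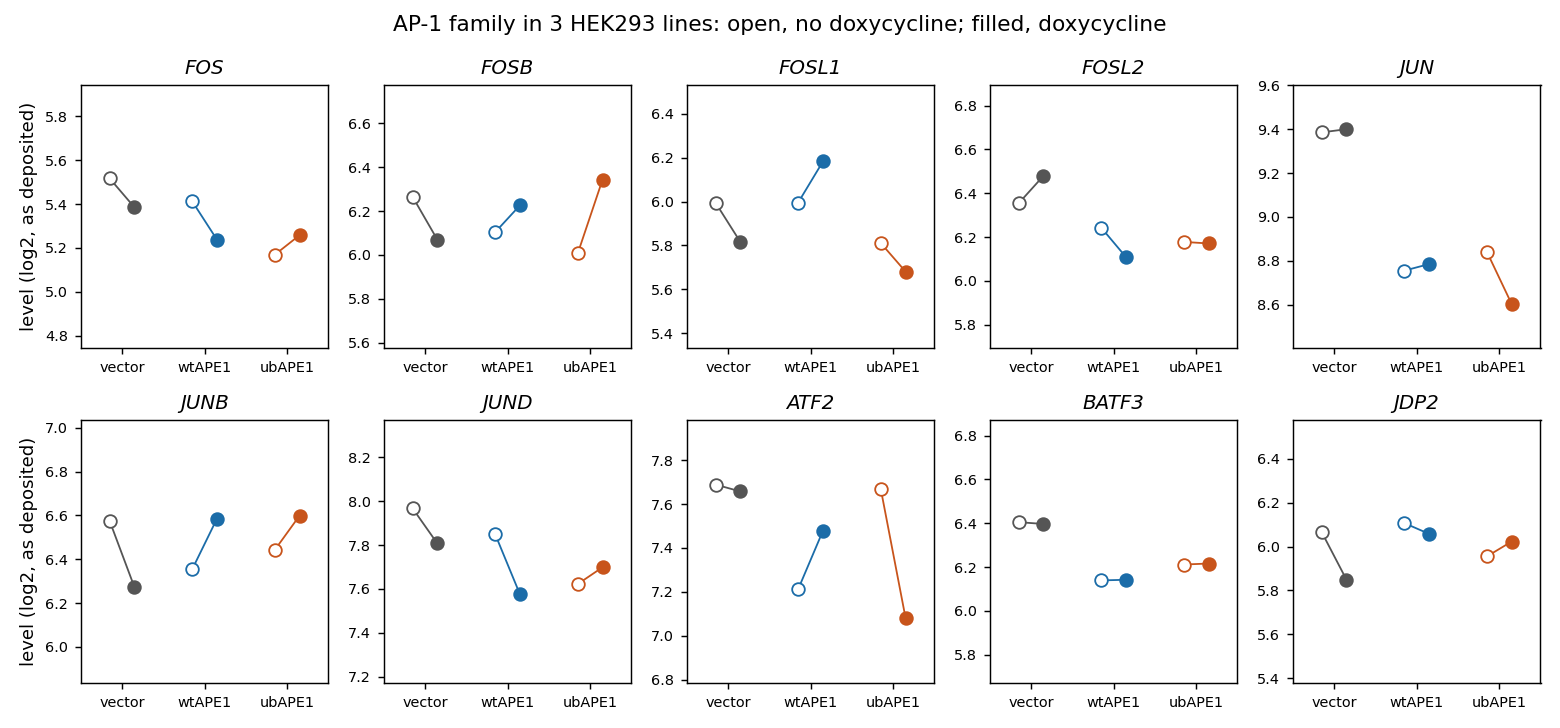
Level of each AP-1 family gene (log2, as deposited; each panel spans 1.2 log2) in the vector, wtAPE1 and ubAPE1 lines; open points are columns without and filled points with doxycycline, each 1 column averaged by the authors, with no error bar because the replicate spread was not used here. JUN shows both vector points (9.39 and 9.40) above the 4 points of the APE1 lines (8.60 to 8.84). Once aligned, 17.7% of all rows had this order.

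Averaged over the doxycycline states, the ubAPE1 line had less JUN mRNA than the vector line, at -0.59 ± 0.17 log2 (SE; 95% interval -0.93 to -0.25), which is 1.51-fold, with a limma adjusted p = 0.0256. It was lower without doxycycline (-0.50) and with it (-0.69). In the wtAPE1 line the difference was -0.49 ± 0.17 log2 (95% interval -0.83 to -0.14; 1.40-fold), which missed the threshold (limma adjusted p = 0.0803), with -0.42 without and -0.55 with doxycycline. Between the APE1 lines JUN differed by -0.11 log2 (ubAPE1 minus wtAPE1, 95% interval -0.45 to 0.24, limma adjusted p = 1.00). The wtAPE1 and ubAPE1 contrasts use the same vector columns. In these fits the doxycycline states stand in for replicates of a line, and the SD of each row is drawn close to one shared by all rows, so p mainly measures the size of a difference against that common SD.

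Of the 10 members, JUN alone passed in the ubAPE1 contrast, where 4.65% of all rows passed in limma. In the wtAPE1 contrast 0 of 10 passed in limma, against 5.57% of all rows. Before adjustment, JUN alone was under 0.05 in each contrast, against 19.3% (wtAPE1) and 13.6% (ubAPE1) of rows. With 10 genes, counts of 0 and 1 lie near the background. The JUN call in the ubAPE1 line held in 7 of 10 alternatives and was lost without a row filter (limma adjusted p = 0.0508), with values as deposited (0.0996) and without the wtAPE1 line in the fit (0.0600). In the wtAPE1 line JUN passed in 2 of 10, with a trend along gene length removed (0.0185) and without the ubAPE1 line (0.00582).

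**Figure D2:**
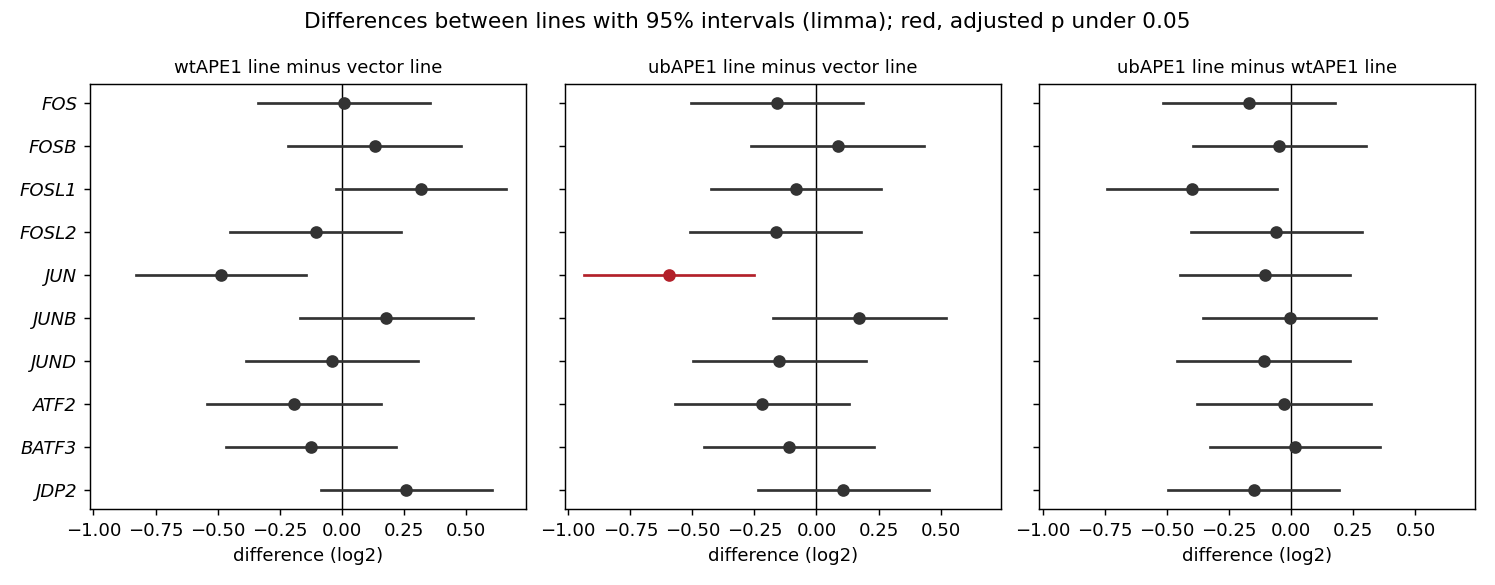
Differences between lines (log2, relative to the median row) for the 10 AP-1 genes, averaged over both doxycycline states; points are limma estimates, bars 95% intervals, and red marks an adjusted p under 0.05. JUN in the ubAPE1 line (-0.59) is the only red point, and FOSL1 has the widest gap between the APE1 lines (-0.40).

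JUNB and JUND, the other JUN proteins, did not pass in any contrast. JUNB, a weaker activator that can restrain JUN, lay at 6.58 and 6.27 log2 (vector), 6.35 and 6.58 (wtAPE1) and 6.44 and 6.60 (ubAPE1). Its columns overlapped between lines, with line differences of 0.18 (wtAPE1, 95% interval -0.17 to 0.53) and 0.17 (ubAPE1, -0.17 to 0.52), limma adjusted p = 0.583 and 0.773. JUND, the JUN protein found in many resting cells, lay at 7.97 and 7.81, 7.85 and 7.58, and 7.62 and 7.70 log2 in the same order. Its wtAPE1 columns spanned those of the vector line, and the ubAPE1 columns reached only the lower of them once aligned. The differences were -0.039 (95% interval -0.39 to 0.31; above 0 with columns centred on their median or quantile normalized) and -0.15 (-0.50 to 0.20). The difference between JUN and its relatives was not itself tested.

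Among the FOS proteins, FOS is the classic immediate early gene, transcribed within minutes of serum or growth factor and then shut off. FOS lay at 5.52 and 5.39 log2 (vector), 5.41 and 5.24 (wtAPE1) and 5.17 and 5.26 (ubAPE1). Once aligned, both ubAPE1 columns (5.12 and 5.33) lay below the vector columns (5.42 and 5.34), narrowly so with doxycycline, while the wtAPE1 columns spanned them. How many of all rows had this order was not counted. Relative to the vector line it differed by 0.0096 log2 in the wtAPE1 line (95% interval -0.34 to 0.36; as deposited the sign turned, to -0.13) and by -0.16 in the ubAPE1 line (-0.51 to 0.19). FOSB, a close relative of FOS with a short form that lacks the activating end, lay at 6.27 and 6.07, 6.10 and 6.23, and 6.01 and 6.34 log2. Its highest and its lowest column both belonged to the ubAPE1 line, and its line differences were 0.13 and 0.085.

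FOSL1 and FOSL2 encode FRA1 and FRA2, FOS relatives without its strong activation domain. FOSL1 lay at 5.99 and 5.82 log2 (vector), 5.995 and 6.18 (wtAPE1) and 5.81 and 5.68 (ubAPE1). On the aligned scale both wtAPE1 columns (6.11 and 6.21) were above the other 4 (5.75 to 5.90). As deposited, the untreated wtAPE1 and vector columns were nearly equal. The share of all rows with such an order was not taken. FOSL1 had the lowest unadjusted p of the members between the APE1 lines (ubAPE1 minus wtAPE1 -0.40 ± 0.17 log2, 95% interval -0.74 to -0.059), and its adjusted value in limma was 1.00. In this contrast 0 of 10 members and 0% of all rows passed in limma, and 1 member and 0.861% of rows had an unadjusted p under 0.05. FOSL2 lay at 6.35 and 6.48, 6.24 and 6.11, and 6.18 and 6.17 log2, with line differences of -0.10 and -0.16 whose intervals held 0.

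ATF2, BATF3 and JDP2 are partners with a related zipper. ATF2, a stress kinase target that pairs with JUN, lay at 7.69 and 7.66 log2 (vector), 7.21 and 7.48 (wtAPE1) and 7.67 and 7.08 (ubAPE1). Its lowest column was the doxycycline-treated ubAPE1 line, and its line differences of -0.19 and -0.22 had intervals that held 0 (-0.54 to 0.16 and -0.57 to 0.13). BATF3, which pairs with JUN proteins and lacks an activation domain, lay at 6.41 and 6.40, 6.14 and 6.14, and 6.21 and 6.22 log2. Like JUN it had both vector columns above the 4 others, but by a small margin, with differences of -0.12 (95% interval -0.47 to 0.22) and -0.11 (-0.45 to 0.23). JDP2, a repressor that takes the place of FOS in dimers with JUN, lay at 6.07 and 5.85, 6.11 and 6.06, and 5.96 and 6.02 log2, with differences of 0.26 (-0.085 to 0.60) and 0.11 (-0.24 to 0.45). On the aligned scale, both vector columns lay above all 4 others for 2 of 10 members, against 17.7% of all rows. They lay below them for 0 of 10, against 16.1%. As deposited, FOSL2 joined and the first count was 3, but the share over all rows was not taken on that scale.

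The median over the 10 genes was -0.015 log2 in the wtAPE1 contrast, against -0.014 over all rows, with 5 members below 0. In the ubAPE1 contrast it was -0.13 against 8.7e-04, with 7 below 0, and between the APE1 lines -0.082 against 0.0029, with 9 below 0. As deposited, 6 members lay below 0 between the APE1 lines. Between single columns, 0 of 10 members reached 1.5-fold between wtAPE1 and vector without doxycycline (7.21% of rows did), 0 between ubAPE1 and vector without it (3.99%) and 0 between the APE1 lines (1.95%). With doxycycline the counts were 0 for wtAPE1 against vector (5.96% of rows), 1 for ubAPE1 against vector (JUN, with 11% of rows) and 0 between the APE1 lines (0.448%). Without doxycycline, 9 of 10 members had a lower value with ubAPE1 than with vector (median -0.14, against 0.0051 over all rows) and 9 of 10 a lower value than with wtAPE1 (median -0.24, against 0.010), ATF2 being the exception in both. With doxycycline, 7 of 10 had a higher value with ubAPE1 than with wtAPE1 (median 0.063, against -0.0054). These counts depend on the scale. Without doxycycline, 6 of 10 were lower with ubAPE1 than with wtAPE1 as deposited (median -0.081) and also with the length trend removed (-0.12). Against vector, 10 of 10 were lower in both of these settings. With doxycycline, 6 of 10 were higher with ubAPE1 than with wtAPE1 as deposited, and 5 of 10 with the length trend removed. These comparisons rest on single columns and carry no test.

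No member reached 1.5-fold in its response to doxycycline in any line, where 0.921% (vector), 0.938% (wtAPE1) and 5.13% (ubAPE1) of all rows did. The response of JUN was 0.069, -0.056 and -0.12 log2 in the vector, wtAPE1 and ubAPE1 lines, relative to the median row. The widest responses were in the ubAPE1 line, at 0.46 for FOSB (1.37-fold) and -0.47 for ATF2 (1.38-fold lower). JUNB gave -0.25, 0.15 and 0.28, and FOSB -0.14, 0.037 and 0.46, values below 0 for the vector line and above 0 for both APE1 lines. JUND gave -0.11, -0.36 and 0.20, FOS -0.077, -0.26 and 0.21, FOSL2 0.18, -0.22 and 0.12, and JDP2 -0.16, -0.13 and 0.19. FOSL1 (-0.12, 0.10 and -0.0078) and BATF3 (0.047, -0.083 and 0.13), like JUN, stayed within 0.13 of the median row. As deposited the sign turned for JUN in the wtAPE1 line (0.030), FOSL2 in the ubAPE1 line (-0.0071), BATF3 in the vector and wtAPE1 lines (-0.0083 and 0.0028) and ATF2 in the vector line (-0.031), and with columns centred on their median for FOSL1 in the ubAPE1 line (0.038).

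**Figure D3:**
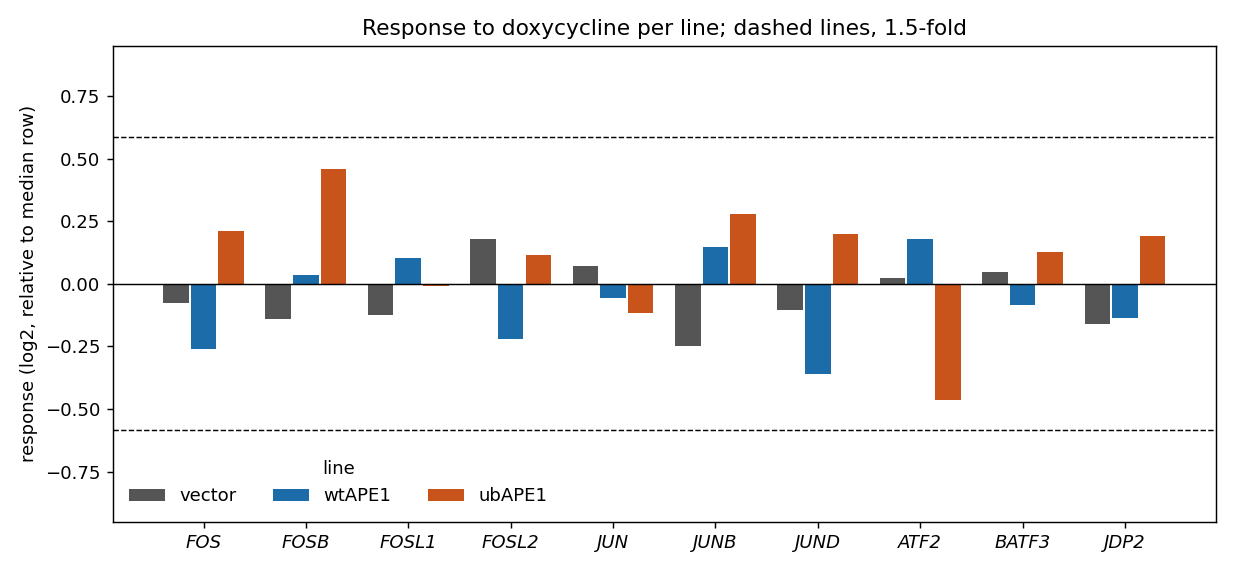
Response to doxycycline (column with minus column without, log2, relative to the median row) of the 10 AP-1 genes in the vector, wtAPE1 and ubAPE1 lines; each bar is a difference of 2 columns, without error, and dashed lines mark 1.5-fold. All bars lie inside the lines, and the longest are ATF2 (-0.47) and FOSB (0.46) in the ubAPE1 line.

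A response common to the lines was then tested. In limma 0 of 10 members passed, and 0 had an unadjusted p under 0.05, against 0.0775% and 2.71% of all rows. FOSB had the largest estimate (0.12 log2, 95% interval -0.17 to 0.40). JUN gave -0.034 (-0.31 to 0.25) and FOS -0.042 (-0.32 to 0.24). For the genes of the family these intervals leave room for a common change of up to 0.40 log2 upwards and 0.37 downwards.

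Responses of the APE1 lines beyond that of the vector line come closest to the question of the design, and both subtract the same vector response. FOSB exceeded it by 0.60 log2 (1.51-fold) in the ubAPE1 line and by 0.18 in the wtAPE1 line, and JUNB by 0.53 and 0.39. At 1.5-fold, 0 of 10 members were counted for wtAPE1 (3.95% of rows) and 1, FOSB, for ubAPE1 (13.1%). The ubAPE1 response minus that of wtAPE1 was -0.65 for ATF2 (1.57-fold lower), the 1 member counted there (12.3% of rows), and 0.56 for JUND and 0.47 for FOS.

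Gene length moved with the ubAPE1 response. Rows were split into 4 classes by genomic length. The shortest class (up to 11238 bp) had a median ubAPE1 response of 0.17 log2 and the longest class -0.16. The same classes had -0.026 and 0.040 in the vector line and -0.072 and 0.033 in the wtAPE1 line. Of the members, 6 lie in the shortest class (FOS, FOSB, FOSL1, JUN, JUNB and JUND, 1830 to 8497 bp), and ATF2 with 95945 bp in the longest. As measured, 7 of 10 members lay above the median row in the ubAPE1 response, with a median of 0.16. With the trend along length removed the numbers were 6 of 10 and 0.0099, with FOSB at 0.31, JUNB at 0.056, FOS at 0.0059, JUND at -0.024 and ATF2 at -0.30, and JUN reached -0.32. The responses of JUN in the wtAPE1 line (0.022) and ATF2 in the vector line (-0.032) also turned sign. The excess of FOSB over the vector response was then 0.43 and the ATF2 value against wtAPE1 -0.43, both inside 1.5-fold.

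Other genes of the pathway were taken from lists. Of 8 further zipper partners tested, ATF3 was lower in both APE1 lines. ATF3, a stress-induced partner of JUN, lay at 6.53 and 6.59 log2 (vector), 5.78 and 5.74 (wtAPE1) and 5.88 and 5.77 (ubAPE1). Both vector columns were thus above the rest, an order that 17.7% of all rows had once aligned. The differences were -0.66 ± 0.17 log2 (limma adjusted p = 0.00812) and -0.66 ± 0.17 (adjusted p = 0.00990), the second being lost in 1 of 10 settings (with values as deposited, adjusted p = 0.0627). The list medians were -0.022 and 0.011.

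Of 10 kinases and serum response factors upstream, RPS6KA2, a ribosomal S6 kinase that acts below ERK, was lower in the ubAPE1 line (-0.55 ± 0.17 log2, limma adjusted p = 0.0433) and had -0.41 in the wtAPE1 line (adjusted p = 0.162). It passed in 4 of 10 settings, the reported one included, with adjusted p between 0.0316 and 0.219. MAPK8 and MAPK9, which encode the JNK kinases that phosphorylate JUN, did not pass in either contrast. Of 13 other immediate early genes, DUSP1, a phosphatase that switches off MAP kinases, was lower in both lines (-0.62 ± 0.17 and -0.59 ± 0.17 log2, limma adjusted p = 0.0159 and 0.0258). Its levels were 8.11 and 7.87, 7.15 and 7.32, and 7.47 and 7.16 log2. In the ubAPE1 line this call was lost in 4 of 11 settings (limma adjusted p between 0.0128 and 0.134), and in the wtAPE1 line in 1 of 11 (as deposited, 0.0708). EGR1, a zinc finger factor induced together with FOS, gave -0.37 and -0.50 log2. CCN1, a secreted matrix protein, gave -0.52 and -0.53, and neither passed. EGR4 (0.50 and 0.42) and ZFP36 (0.34 and 0.15) had differences in the other direction that did not pass either. In each contrast 5 of the 13 genes lay above 0 and 8 below, with list medians of -0.17 (wtAPE1) and -0.13 (ubAPE1).

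The other immediate early genes had a median doxycycline response of 0.022 log2 (vector), -0.14 (wtAPE1) and 0.17 (ubAPE1), with 7, 3 and 12 of 13 above the median row. Of these genes, 12 lie in the shortest length class. With the length trend removed the medians were 0.043, -0.066 and 0.013.

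Redox partners of APE1 in AP-1 regulation were looked at next. TXN, which encodes thioredoxin, had no row with it as the only gene. PRDX1, a peroxiredoxin, and TXNRD1, which encodes thioredoxin reductase, did not pass. GLRX, a glutaredoxin that reduces protein thiols, lay at 6.09 and 5.48 log2 (vector), 4.99 and 4.37 (wtAPE1) and 5.26 and 4.63 (ubAPE1). It was lower in both APE1 lines (-0.97 ± 0.17 and -0.76 ± 0.17 log2, limma adjusted p = 2.97e-05 and 0.00172) in all 10 settings run, among them the one without a row filter. Its row reached the row limit through the vector columns, with a mean of 4.81 log2 over the APE1-line columns. Its doxycycline responses were -0.56, -0.71 and -0.50 log2, which as a common response missed the threshold (limma adjusted p = 0.0780) and passed in 3 of 13 settings.

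Known targets of AP-1 were the last list. Of 10 tested, HMOX1, the heme oxygenase induced by oxidative stress, was higher in the ubAPE1 line (0.59 ± 0.17 log2, limma adjusted p = 0.0306, passing in 7 of 10 settings) and gave 0.34 in the wtAPE1 line (adjusted p = 0.272). Its levels were 5.89 and 5.72, 6.11 and 5.90, and 6.27 and 6.35 log2, and as deposited both ubAPE1 columns were above all others. The share of all rows with that order was not taken. Once aligned, the ubAPE1 column exceeded the wtAPE1 column by 0.0030 log2 without doxycycline and by 0.49 with it. The largest differences among the rest were VEGFA, a growth factor for blood vessels (-0.52 and -0.50 log2, limma adjusted p = 0.0575 and 0.0840), EZR, which links membrane and actin (-0.51 and -0.38, adjusted p = 0.0673 and 0.279), and the keratin gene KRT18 (-0.44 and -0.41, adjusted p = 0.126 and 0.207), and none passed. The list medians were -0.0032 and -0.068 log2, against -0.014 and 8.7e-04 over all rows.

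The rows whose pattern over the 6 aligned columns was most like that of JUN, the member with the widest range (0.69 log2), were IGFBP5, an insulin-like growth factor binding protein (Pearson r = 0.998), PDE8B, a phosphodiesterase for cAMP (0.995), and PPP2R2C, a regulatory subunit of protein phosphatase 2A (0.993). They were the top 3 of 2118 rows with a single gene and a range of at least 1.5-fold. The 6 points are columns shared by all rows, and the value mostly reflects a step between the vector line and the others. IGFBP5 made a larger step than JUN, from 6.98 and 6.96 log2 (vector) to 5.88 and 5.88 (wtAPE1) and 5.95 and 5.595 (ubAPE1). PDE8B reached the row limit (5.03 log2) through its vector columns (5.53 and 5.62). Its other levels were 4.93 and 4.92 (wtAPE1) and 5.05 and 4.75 (ubAPE1).

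**Figure D4:**
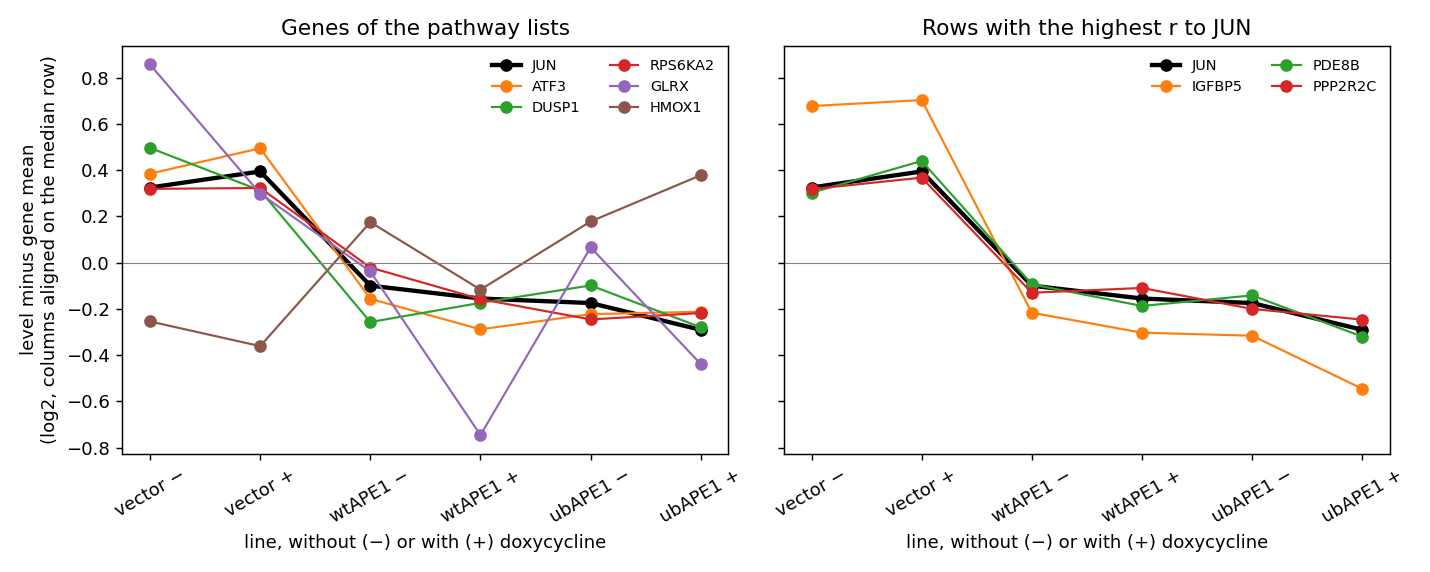
Level minus the gene's mean (log2, columns aligned on the median row) over the 6 columns for JUN (black) with the pathway genes that passed in a line contrast, APEX1 left out (left), and with the 3 rows of highest r to JUN (right); lines join single columns for legibility. JUN, ATF3, DUSP1 and RPS6KA2 step down between the vector columns and the rest, GLRX is also lower in each column with doxycycline, and HMOX1 runs the other way.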

How the data were processed

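RNA of 6 groups was measured on Affymetrix whole-transcript arrays. The authors deposited log2 levels per array row, each column a mean of 3 biological replicates per the labels. That they are log2 was inferred from their range. Genome build hg 18 is listed in the submitters' processing notes. Summarisation, background correction and normalization were not given in the sources used here.

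Of 15492 rows, 12616 have 1 gene symbol, 2031 several and 845 none, and 12602 of the first were matched by gene ID to the RefSeq gene table (GRCh38.p14), with 0 symbols updated. No 2 columns were identical. After the row filter and alignment, limma (version 3.58.1, R 4.3.3) was fitted with cell line and doxycycline as additive terms (2 residual and 68.2 prior degrees of freedom, so that row SDs were drawn close to a common value), with Benjamini-Hochberg adjustment over 11619 rows and a threshold of 0.05. Differences of single columns were counted at 1.5-fold. The number of columns limits the precision. Intervals cover the fit's error only.

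The named genes are all members, the listed genes past the threshold (of a list with none, the 2 with the largest line difference), APEX1 as the check of the labels and the 3 rows most like the member with the widest range. EGR1, CCN1, EGR4, ZFP36, MAPK8, MAPK9, VEGFA, EZR, KRT18, PRDX1, TXNRD1 and the cell type markers were named after their values were seen. For a gene with several rows, the row with the highest mean was used. Members and lists were chosen with earlier results of these data known. Alternatives concerned the row filter, the alignment, a floor for low values, the eBayes prior, 1 row per gene, the lines in the fit, a fit of doxycycline without the cell line term, and a 2-fold rule, and, chosen after seeing the data, the removal of the length trend (median within 20 length bins). The pseudocount alternative, meant for linear values, was not run. The fitting code was first tested on simulated data.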

Additional observations from a re-analysis of the deposited data

How the results depend on the processing

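Each group holds 1 averaged column, so line contrasts rest on 2 columns per line, and leaving out replicates was not run. No paired analysis was possible because the labels give no replicate numbers. The JUN direction between either APE1 line and the vector line was the same in all 10 alternatives of each contrast. With the floor, the other eBayes prior, 1 row per gene or the third line left out, the estimate itself was unchanged (-0.49 wtAPE1, -0.59 ubAPE1). Those alternatives therefore say nothing about the direction.

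The count of members past the threshold in ubAPE1 against vector went from 1 to 0 without a row filter, with values as deposited and without the wtAPE1 line. In wtAPE1 against vector it went from 0 to 1 with the length trend removed and without the ubAPE1 line. The size counts changed as follows. As deposited, the ubAPE1 response (ATF2) and wtAPE1 against vector without and with doxycycline (JUN) each gave 1 in place of 0, and the last also gave 1 with the length trend removed. The excess of the ubAPE1 over the vector response gave 0 in place of 1 as deposited, without a row filter, with the length trend removed and at 2-fold. The ubAPE1 response minus the wtAPE1 response gave 2 with columns centred on their median, and 0 with the trend removed and at 2-fold, and ubAPE1 against vector with doxycycline gave 0 at 2-fold.

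Differences that turned sign had not passed in limma. In wtAPE1 against vector these were FOS (-0.031 without a row filter, -0.13 as deposited, -0.049 after quantile normalization, -0.11 with the trend removed), FOSB (-0.0028 as deposited) and JUND (8.3e-04 centred, 0.047 after quantile normalization). Between the APE1 lines they were JUNB (0.012 without a row filter, 0.051 as deposited, 0.078 with the trend removed), BATF3 (-0.010 at the 50th percentile filter), FOSB (0.010) and ATF2 (0.030), both as deposited. For the common doxycycline effect they were FOSL2 (-0.0055) and BATF3 (-3.2e-04) as deposited, and FOSL1 (0.0081 centred, 0.0056 after quantile normalization). Without the vector line they were FOSL1 (0.047), FOSL2 (-0.052) and JDP2 (0.028), without the wtAPE1 line FOS (0.067), JUND (0.047) and JDP2 (0.014), and without the ubAPE1 line FOSB (-0.052), FOSL2 (-0.020), JUN (0.0069), JUNB (-0.051), ATF2 (0.10) and BATF3 (-0.018). For all of these the cause was not tested.

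Over all rows, the count past the threshold was 647 in wtAPE1 against vector (245 as deposited to 1998 without the ubAPE1 line), 540 in ubAPE1 against vector (162 as deposited to 584 with an intensity trend and robust prior), 0 between the APE1 lines (0 to 1) and 9 for doxycycline (0 as deposited and without the cell line term, to 47 without the ubAPE1 line). At 1.5-fold, 107, 109 and 596 rows were counted in the vector, wtAPE1 and ubAPE1 responses, and the alternatives gave 7 to 268, 8 to 263 and 18 to 1039.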
